A study of Homo sapiens with 4 samples.

Results

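The genes described are 9 that carry peptides to the cell surface on MHC class I molecules: the heavy chains HLA-B, HLA-C, HLA-E and HLA-F, the shared light chain B2M, the peptide transporter subunits TAP1 and TAP2, the bridging chaperone TAPBP and the transcriptional activator NLRC5. They were taken by symbol, not by value, from the 41507 genes of the deposited expression table. SU-DHL-5 and Toledo, both established human lines of diffuse large B-cell lymphoma (DLBCL), were treated with the BET inhibitor JQ1 at 1 µM or with the vehicle DMSO, for 6 h by the labels, while the article gives a longer exposure, so the exact time is uncertain. Total RNA was made into strand-specific mRNA libraries. There was 1 sample for each of the 4 conditions, SU-DHL-5 DMSO, SU-DHL-5 JQ1, Toledo DMSO and Toledo JQ1, and each sample had 2 libraries. The labels do not say whether these came from separate cultures, so the libraries were averaged as 1 replicate. A comparison within a line or between the DMSO samples then has 1 sample on each side and no p-value, while the JQ1 effect common to both lines can be tested with the lines as pairs. Each line is 1 tumour-derived line grown in culture, without the tissue around a lymphoma.

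MHC class I molecules display peptides from proteins made inside the cell to CD8 T cells and natural killer cells. The proteasome cuts proteins into peptides, TAP1 and TAP2 pump them into the endoplasmic reticulum, and tapasin, the product of TAPBP, holds an empty heavy chain with B2M beside the pump until a peptide binds. NLRC5 has no DNA-binding activity of its own and acts through the RFX, NFY and CREB/ATF proteins on a conserved set of promoter boxes, and loss of class I display is a known route of immune escape in DLBCL. JQ1 displaces the BET proteins, readers of acetylated histones, from chromatin.

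By the deposited coordinates (hg38, 1-based), 7 of the 9 genes lie in the MHC region of chromosome 6. They are HLA-F (chr6:29723340-29727296), HLA-E (chr6:30489406-30494205), HLA-C (chr6:31268749-31272136), HLA-B (chr6:31353872-31357212), TAP2 (chr6:32821833-32838770), TAP1 (chr6:32845209-32853971) and TAPBP (chr6:33299694-33314387). B2M (chr15:44711487-44718159) and NLRC5 (chr16:56989547-57083526) lie elsewhere. The heavy chain genes are close relatives and vary between people, so reads may be shared among them and their copies, and how such reads were placed is not given in the sources used here. Their levels are therefore less certain than those of the other members.

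RefSeq promoter sequences (GRCh38.p14) were at hand for 7 of the 9 genes, with HLA-E and NLRC5 not in the table used. The stretches below, from gene-strand position -190 relative to the RefSeq start to a point upstream of the start in the deposited table, are shown because they cover the stretch in which class I promoters carry the boxes for the RFX, NFY and CREB/ATF proteins. The HLA-F stretch ends before its ATTGG matches, since the deposited start of that gene lies further upstream. Capitals mark matches on either strand to TGACG (core of the X2 box, a CREB/ATF site), ATTGG (the Y box, read by NFY), GAAANNGAA (part of the interferon-stimulated response element) and GGGNNTTCC (a kappa B site).
HLA-B (chr6:31357230-31357369, minus strand): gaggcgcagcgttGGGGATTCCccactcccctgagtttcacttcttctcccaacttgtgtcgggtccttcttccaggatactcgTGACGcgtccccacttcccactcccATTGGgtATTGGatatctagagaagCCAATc
HLA-C (chr6:31272143-31272282, minus strand): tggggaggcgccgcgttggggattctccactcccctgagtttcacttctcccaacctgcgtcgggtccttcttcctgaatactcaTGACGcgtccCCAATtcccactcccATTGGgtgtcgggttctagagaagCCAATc
HLA-F (chr6:29723244-29723339, plus strand): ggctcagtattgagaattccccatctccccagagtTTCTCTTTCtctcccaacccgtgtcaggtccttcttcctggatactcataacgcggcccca
B2M (chr15:44711327-44711476, plus strand): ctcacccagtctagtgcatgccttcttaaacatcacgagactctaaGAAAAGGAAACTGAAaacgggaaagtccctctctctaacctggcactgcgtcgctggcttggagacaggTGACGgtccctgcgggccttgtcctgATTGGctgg

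Among all 35116 RefSeq promoters in the table, 21.2% held TGACG, 32% held ATTGG and 7.26% held both in the 250 bases before the start. HLA-B, HLA-C and B2M held both. HLA-F held ATTGG, at position -82 and, on the other strand, at -57, downstream of the stretch printed, and no TGACG. GAAANNGAA was in 6.88% of all promoters and in those of HLA-F, TAP1, TAP2, TAPBP and B2M, GGGNNTTCC in 5.78% and in those of HLA-B and TAPBP, and TTCNNNGAA (a STAT site) in 6.57% and in none of the 7 members' first-listed promoters. These matches describe letters in a window and nothing about binding.

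The values are RPKM, reads scaled by gene length and by the mapped reads of the library, which allow genes to be compared per length within a library. Whole reads could be recovered from them, with 14617591 to 17679840 mapped reads per library, for 99.8% of the 9521 genes that averaged at least 1 RPKM over the 8 libraries. All 9 members passed this filter, NLRC5 narrowly with a mean of 1.02 RPKM. HLA-F and NLRC5 passed only through Toledo DMSO, the sample where each was highest, at 3.62 and 1.42 RPKM. Over the other samples each averaged below 1 RPKM. In SU-DHL-5 DMSO, SU-DHL-5 JQ1, Toledo DMSO and Toledo JQ1, 1.22%, 1.06%, 1.71% and 1.09% of these genes differed at least 1.5-fold between the 2 libraries of the sample. In Toledo DMSO that difference also ran with gene length (Spearman's rho was 0.61 over 9506 genes, as a description), so ratios to that sample were also centred on length. All 5 B cell markers (MS4A1, CD79A, CD79B, PAX5 and CD22) were above 1 RPKM in every sample, summing to 859 to 969 RPKM in SU-DHL-5 DMSO and 844 to 904 in Toledo DMSO, against 620.0 to 627 and 596 to 613 after JQ1. The 4 T cell, 3 natural killer cell and 3 myeloid markers each summed to at most 1.29 RPKM in any library. HEXIM1, a gene commonly used to read out BET inhibition, averaged 4.12 RPKM in SU-DHL-5 DMSO and 22.7 after JQ1, and 3.99 and 24.2 in Toledo. MYC, a known target of BET inhibitors, was not called in either line, at 42.5 RPKM with DMSO and 34.8 with JQ1 in SU-DHL-5 (log2 ratio -0.29) and at 42.4 and 43.3 in Toledo (0.03). The article, by other assays, reports lower MYC mRNA (quantitative PCR) and protein (Western blot) after JQ1 in lines that include both. The difference from the values here was not tested.

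JQ1 was accompanied by lower RPKM for most of the class I genes and by higher RPKM for B2M. A gene was called where the ratio of the sample means, with 0.1 RPKM added to each, was at least 1.5-fold and both libraries of one sample lay beyond both of the other. In SU-DHL-5, HLA-F and TAPBP were called lower, 2 of 9 where 11.9% of all 9521 tested genes were, and 0 members were called higher where 8.65% of tested genes were. In Toledo, HLA-F, TAP2, TAPBP and NLRC5 were called lower, 4 of 9 against 16.1% of tested genes, and B2M was called higher, 1 of 9 against 6.57%. HLA-F and NLRC5 passed the filter only through Toledo DMSO, the sample their Toledo ratios are measured from. The filter thus favoured lower values of both after JQ1 in Toledo, and the Toledo counts and the fit over both lines carry this limit. The 9 genes had a median log2 ratio of -0.34 for SU-DHL-5 and -0.36 for Toledo, where the medians of all tested genes were 0.01 and -0.06. Without regard to fold, the JQ1 libraries lay wholly below the DMSO libraries for 8 of 9 members in SU-DHL-5, against 37.3% of tested genes, and for 7 of 9 in Toledo, against 42.9%. They lay above for B2M alone in SU-DHL-5, against 41.1%, and for B2M and HLA-E in Toledo, against 29.3%. With 2 libraries from 1 sample on each side, these counts describe the libraries and are not a test of the treatment. Over both lines together, with the cell line as a block in limma on the 4 sample means (1 residual degree of freedom, with the variance moderated across genes), HLA-B, HLA-C, HLA-F, TAP2 and TAPBP were lower after JQ1 at an adjusted p below 0.05, 5 of 9 where 16.3% of tested genes were, and B2M was higher, 1 of 9 where 9.98% were. By limma, HLA-F was at a mean log2 difference of -1.65 (SE 0.30, adjusted p = 0.00324). TAPBP was at -0.67 (SE 0.13, adjusted p = 0.00396 by limma), TAP2 at -0.63 (SE 0.15, adjusted p = 0.0126) and B2M at 0.55 (SE 0.10, adjusted p = 0.00369). HLA-B, at -0.41 (SE 0.11, adjusted p = 0.0185 by limma), and HLA-C, at -0.31 (SE 0.10, adjusted p = 0.0482), passed by less. The adjustment was Benjamini-Hochberg over all 9521 genes. TAP1, NLRC5 and HLA-E did not pass, at -0.28, -0.57 and -0.03 with adjusted limma p-values of 0.134, 0.241 and 0.903. This fit rests on a prior variance that follows expression level. Without that trend 2 of 9 passed, HLA-F and TAPBP, both lower, where 7.9% of tested genes were called lower and 3.55% higher. Without the filter on low genes 0 of 9 passed, where 0.141% of all genes were called higher and 0.221% lower at an adjusted p below 0.05. At an unadjusted limma p below 0.05 that fit had 6 of 9 members, and the share of all genes there was not computed. In the main fit 6 of 9 members were also below that unadjusted threshold, as were 3713 of the 9521 tested genes. In bulk RNA, fewer cells with a transcript and less of it per cell cannot be told apart. The B cell markers were lower beside these genes, with 4 of 5 called lower in SU-DHL-5 and 3 of 5 in Toledo, and their part in the result was not tested.

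**Figure D1:**
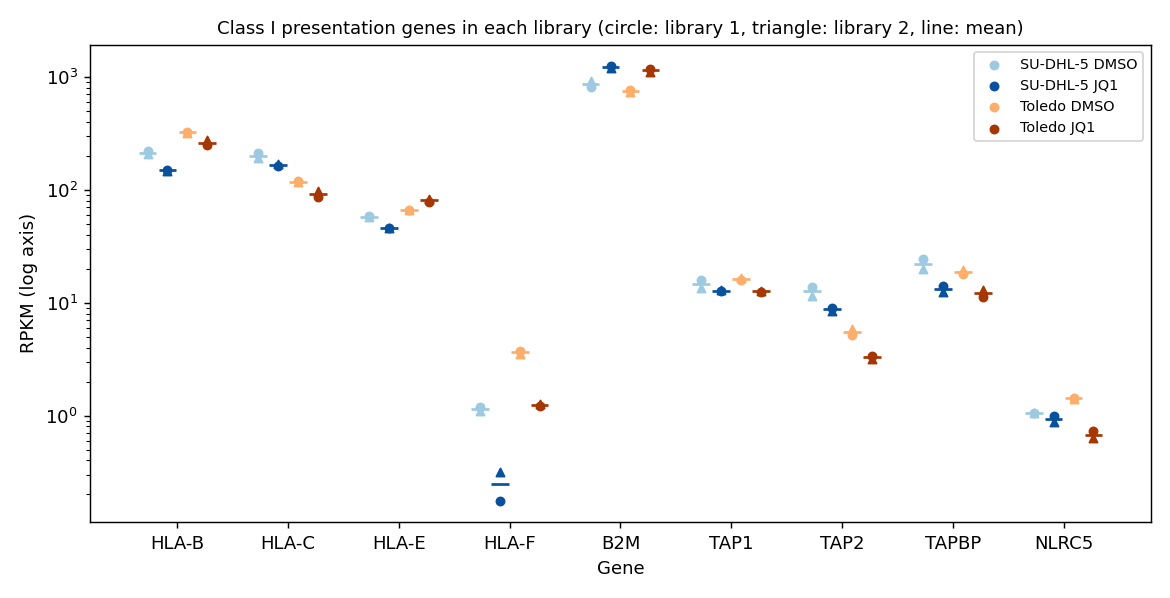
RPKM of the 9 genes (log axis) in each library of the 4 samples, with circles for library 1, triangles for library 2 and a line at the mean. B2M lies near 1000 RPKM and is higher in the JQ1 samples, while HLA-F and NLRC5 lie near 1 RPKM and HLA-F is lower in the JQ1 sample of each line.

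HLA-B, a classical heavy chain that presents peptides to CD8 T cells, was at 219 and 207 RPKM in the SU-DHL-5 DMSO libraries and at 150.04 and 148 after JQ1. In Toledo it was at 328 and 320 RPKM with DMSO and at 248 and 276 with JQ1. The JQ1 libraries lay below the DMSO libraries in both lines with no overlap, at log2 ratios of -0.51 and -0.31, short of a 1.5-fold change. The 95% exact binomial intervals of the read ratios, which cover counting error only and not the spread between cultures, ran from -0.55 to -0.47 for SU-DHL-5 and -0.34 to -0.28 for Toledo.

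HLA-C, the other classical heavy chain here and the main ligand of inhibitory killer-cell receptors, was at 211 and 190.2 RPKM in SU-DHL-5 with DMSO and at 162 and 169 with JQ1. In Toledo it was at 119 and 116 RPKM with DMSO and at 86.8 and 97.9 with JQ1. The libraries did not overlap in either line, and the log2 ratios were -0.28 and -0.35, again short of 1.5-fold. HLA-B was lower by a larger proportion than HLA-C in SU-DHL-5 and by a slightly smaller one in Toledo. HLA-B was 1.04 and 1.09 times HLA-C in the SU-DHL-5 DMSO libraries and 0.924 and 0.88 times after JQ1, and 2.75 times in both Toledo DMSO libraries and 2.86 and 2.82 times after JQ1.

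HLA-E, a non-classical heavy chain that displays leader peptides of other class I molecules to natural killer cells, differed in direction between the lines. In SU-DHL-5 it was at 58.1 and 57.7 RPKM with DMSO and at 46.1 and 45.5 with JQ1, a log2 ratio of -0.34 with a counting interval of -0.40 to -0.28. In Toledo it was at 66.6 and 66.1 RPKM with DMSO and at 78.0 and 82.9 with JQ1, a log2 ratio of 0.28 with an interval of 0.23 to 0.33. Both libraries moved down in SU-DHL-5 and up in Toledo, and the log2 ratios differed by 0.61, but neither change reached 1.5-fold and the difference between the lines could not be tested with 1 sample per condition. Relative to HLA-B in the same library, HLA-E was at 0.265 and 0.278 in SU-DHL-5 DMSO and 0.307 in both SU-DHL-5 JQ1 libraries, and at 0.203 and 0.206 in Toledo DMSO and 0.314 and 0.301 in Toledo JQ1. This ratio was higher after JQ1 in both lines, since HLA-B was lower by more than HLA-E in SU-DHL-5.

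HLA-F, a non-classical heavy chain of low abundance that is found in activated lymphocytes, had the lowest log2 ratio of the 9 genes in both lines. It was at 1.19 and 1.10 RPKM in SU-DHL-5 with DMSO and at 0.177 and 0.319 with JQ1, and at 3.72 and 3.52 RPKM in Toledo with DMSO and 1.22 and 1.26 with JQ1. The libraries did not overlap, and the log2 ratios were -1.84 and -1.47. These rest on few reads: 64 with DMSO and 13 with JQ1 for SU-DHL-5, and 211 and 69 for Toledo, with counting intervals of -3.21 to -1.35 and -1.96 to -1.15. The RPKM added to each value draws the log2 ratio of so low a gene toward 0, and with 1 RPKM in place of 0.1 the ratios were -0.78 and -1.04.

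B2M, beta-2-microglobulin, pairs with every class I heavy chain and is encoded outside the MHC. It was at 822 and 928 RPKM in SU-DHL-5 with DMSO and at 1242 and 1196 with JQ1, and at 771 and 728 RPKM in Toledo with DMSO and 1172 and 1117 with JQ1. The lower of the JQ1 libraries exceeded the higher of the DMSO libraries in both lines. The log2 ratio was 0.48 for SU-DHL-5, short of 1.5-fold except from library 1 alone (0.60), and 0.61 for Toledo, with counting intervals of 0.45 to 0.50 and 0.59 to 0.63 from 25708 to 38349 reads per condition. By RPKM it ranked 100 among all genes in SU-DHL-5 DMSO and 83 after JQ1, and 104 and 84 in the Toledo samples. Its ratio to the sum of HLA-B, HLA-C, HLA-E and HLA-F in the same library was 1.68 and 2.03 in SU-DHL-5 DMSO against 3.46 and 3.30 after JQ1, and 1.49 and 1.44 in Toledo DMSO against 2.83 and 2.44 after JQ1. The log2 ratio of B2M was thus above 0 where those of HLA-B, HLA-C and HLA-F were below 0 in both lines, though within a line only HLA-F and, in Toledo, B2M were past 1.5-fold.

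**Figure D2:**
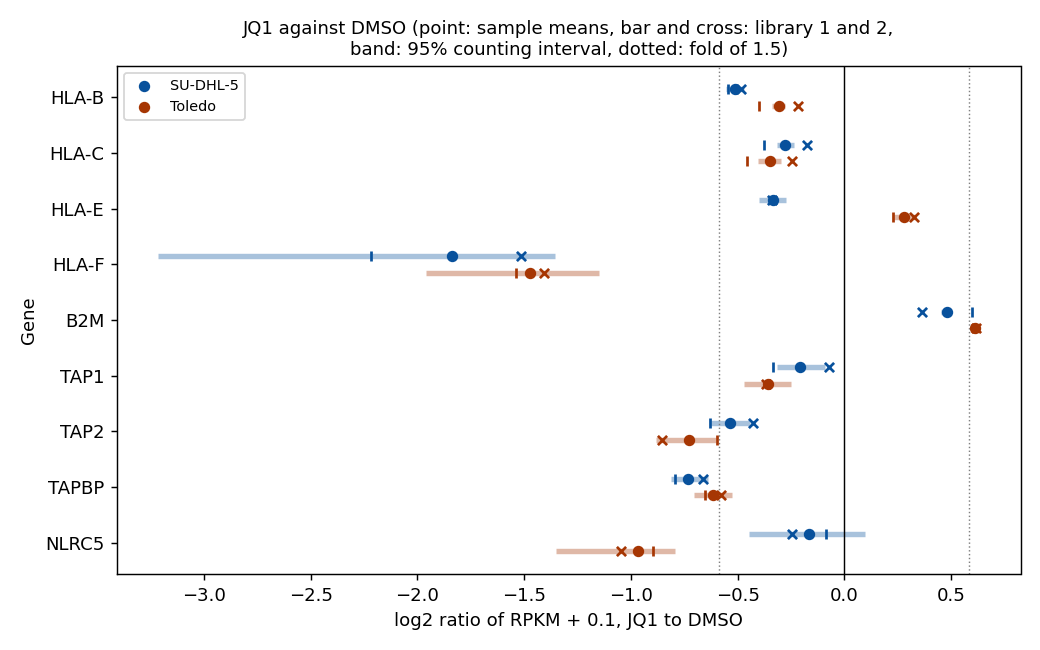
Log2 ratio of RPKM + 0.1, JQ1 to DMSO, of the 9 genes in SU-DHL-5 (blue) and Toledo (brown), with points for the sample means, bars and crosses for libraries 1 and 2, pale bands for the 95% counting intervals and dotted lines at 1.5-fold. B2M lies right of 0 in both lines, HLA-E on opposite sides of 0, and the other 7 genes left of 0.

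TAP1 and TAP2 form the peptide pump of the endoplasmic reticulum. TAP1 was at 15.9 and 13.5 RPKM in SU-DHL-5 with DMSO and at 12.6 and 12.9 with JQ1, and at 15.9 and 16.5 RPKM in Toledo with DMSO and 12.4 and 12.8 with JQ1. The log2 ratios were -0.21 and -0.36, without overlap of the libraries, though in SU-DHL-5 the gap between 13.5 and 12.9 RPKM was smaller than the gap between the 2 DMSO libraries. TAP2 was at 13.9 and 11.5 RPKM in SU-DHL-5 with DMSO and at 8.94 and 8.52 with JQ1, and at 5.17 and 5.84 RPKM in Toledo with DMSO and 3.38 and 3.19 with JQ1. Its log2 ratios were -0.53, or -0.63 from library 1 alone, and -0.73, the last 2 past 1.5-fold, and in each line TAP2 was lower by a larger proportion than TAP1. TAP1 was 1.14 and 1.18 times TAP2 in the SU-DHL-5 DMSO libraries and 1.41 and 1.51 times after JQ1, and 3.08 and 2.82 times in Toledo DMSO and 3.68 and 4.01 times after JQ1.

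TAPBP was called lower in both lines. It was at 24.5 and 19.7 RPKM in SU-DHL-5 with DMSO and at 14.1 and 12.4 with JQ1, and at 17.9 and 19.6 RPKM in Toledo with DMSO and 11.3 and 13.1 with JQ1. The log2 ratios were -0.73 and -0.61, with counting intervals of -0.81 to -0.64 and -0.71 to -0.52, and the Toledo interval spans the 1.5-fold line. The Toledo call was lost when ratios were scaled by the median gene (-0.55), centred on gene length (-0.55), taken with 1 RPKM added (-0.58) or from library 2 alone (-0.58). One of 3 listed transcripts, TAPBP_2, held 96.5% to 98.0% of the gene's reads in the 4 samples, so the ratios of the gene rest mainly on this transcript.

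NLRC5, the class I transactivator, was at 1.05 RPKM in both SU-DHL-5 DMSO libraries and at 0.984 and 0.874 with JQ1. In Toledo it was at 1.44 and 1.40 RPKM with DMSO and at 0.725 and 0.628 with JQ1. The log2 ratio was -0.16 in SU-DHL-5, with a counting interval of -0.45 to 0.10 that includes 0, and -0.97 in Toledo, with an interval of -1.35 to -0.79 from 347 reads with DMSO and 158 with JQ1. With 1 RPKM added in place of 0.1 the Toledo value was -0.53, short of a call. Its log2 ratios in the 2 lines were the furthest apart of the 9 genes, at -0.80 for Toledo minus SU-DHL-5, which could not be tested. The reads of NLRC5 were split over 14 listed transcripts whose shares changed from library to library, and no transcript is described. The genes whose levels over the 4 samples lay nearest to those of NLRC5, by the distance between log2 values centred on each gene's mean, were SLC16A7 (0.13), BCL7C (0.14) and GIN1 (0.15), and those nearest to B2M were FAM173B (0.04), EVI5 (0.04) and CSNK1G3 (0.06). With 4 samples, such likeness is a description of these profiles.

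**Figure D3:**
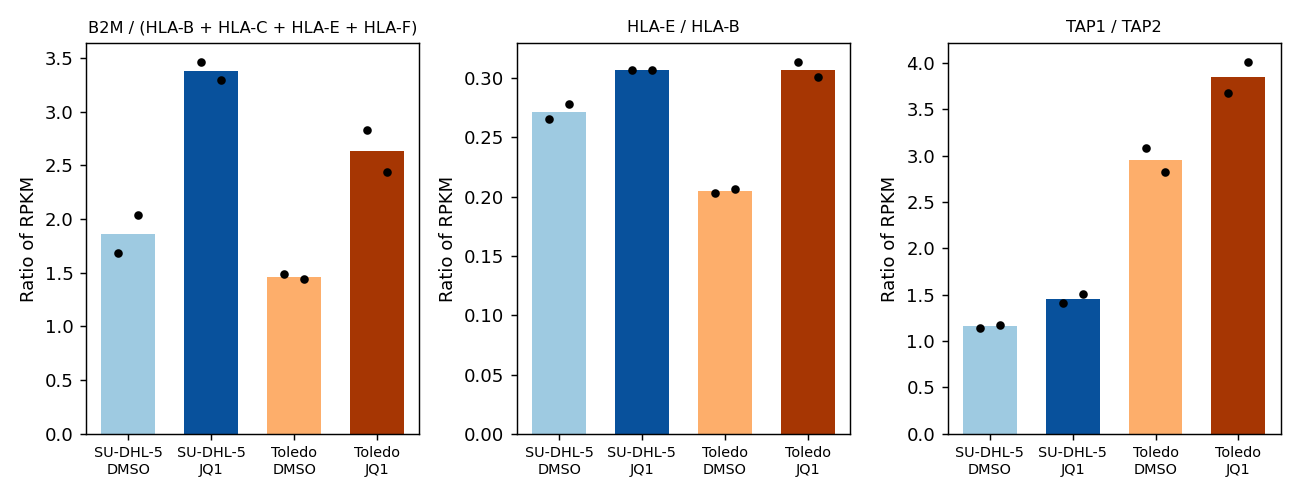
Ratios of RPKM within each library (black points) and their mean (bars) for B2M to the 4 heavy chains summed, HLA-E to HLA-B, and TAP1 to TAP2. Each ratio is higher in both JQ1 libraries than in both DMSO libraries of the same line.

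For most other members the transcript table added little to the gene table. One transcript held 99.0% to 99.8% of the reads of HLA-B and at least 99.9% of those of B2M, and HLA-C, HLA-E and TAP1 had 1 listed transcript each. HLA-F_2 held 57 of 64 reads in SU-DHL-5 DMSO and 9 of 13 after JQ1, and 202 and 64 reads in Toledo. Of the TAP2 transcripts, TAP2_2 held 76.0% of reads in SU-DHL-5 DMSO and 78.4% after JQ1, and 78.0% and 68.3% in Toledo. TAP2_1 was at 2.40 and 3.52 RPKM in the Toledo DMSO libraries and at 2.76 and 2.29 with JQ1, which overlap, while TAP2_2 was at 4.53 and 4.77 with DMSO and 2.44 and 2.43 with JQ1, which do not.

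With DMSO alone HLA-B led the heavy chains in both lines, narrowly over HLA-C in SU-DHL-5 and by a wider margin in Toledo. Toledo was called higher than SU-DHL-5 for HLA-B and HLA-F, 2 of 9 where 25.2% of tested genes were, and lower for HLA-C and TAP2, 2 of 9 where 23.4% were. HLA-F and NLRC5 passed the filter only through Toledo DMSO, which favoured higher values of both in Toledo here. The median log2 ratio, Toledo to SU-DHL-5, was 0.14 for the 9 genes and -0.01 for all tested genes. These shares are close to the background and say nothing particular of the class I genes as a set. Without regard to fold, the Toledo libraries both lay above those of SU-DHL-5 for 5 members, against 42.1% of tested genes, and both below for 4, against 42.2%. The DMSO samples are the ones also used in the JQ1 comparisons.

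HLA-B made up 44.8% and 45.4% of the summed RPKM of the 4 heavy chains in the SU-DHL-5 DMSO libraries and 63.4% and 63.3% in those of Toledo, while HLA-C made up 43.1% and 41.7% against 23.0% in both. The log2 ratios, Toledo to SU-DHL-5, were 0.61 for HLA-B and -0.77 for HLA-C. The lines may carry different alleles of these genes, and the number of reads an allele yields on a reference sequence was not tested. HLA-F was at 2.99 times its SU-DHL-5 level, a log2 ratio of 1.58 with a counting interval of 1.26 to 2.09. TAP2 was at 0.438 times, a log2 ratio of -1.19 with an interval of -1.31 to -1.10. HLA-E, B2M, TAP1, TAPBP and NLRC5 were within 1.5-fold, with log2 ratios of 0.20, -0.22, 0.14, -0.24 and 0.40. For TAP1 and TAPBP the libraries of the 2 lines lay close together, at 15.9 and 16.5 against 15.9 and 13.5 RPKM for TAP1 and at 17.9 and 19.6 against 24.5 and 19.7 RPKM for TAPBP, so the lines were not told apart beyond the spread between libraries.

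**Figure D4:**
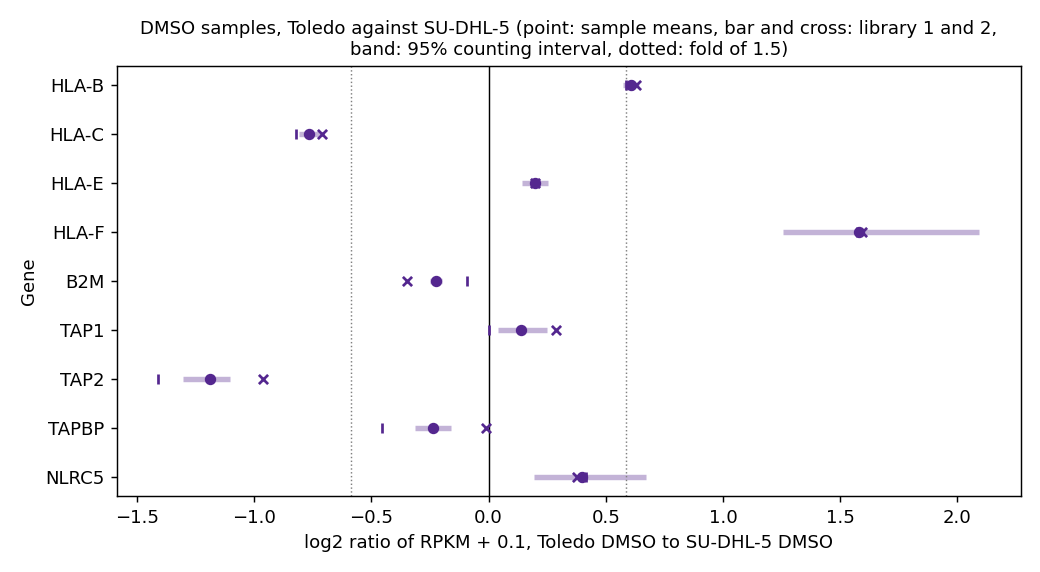
Log2 ratio of RPKM + 0.1, Toledo DMSO to SU-DHL-5 DMSO, of the 9 genes, with points for the sample means, bars and crosses for libraries 1 and 2, pale bands for the 95% counting intervals and dotted lines at 1.5-fold. HLA-B and HLA-F lie past 1.5-fold to the right, and HLA-C and TAP2 past it to the left.

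Ordered by RPKM within SU-DHL-5 DMSO, the genes ran from B2M through HLA-B, HLA-C, HLA-E, TAPBP, TAP1, TAP2 and HLA-F to NLRC5. HLA-B and HLA-C overlapped there, at 207 to 219 and 190.2 to 211 RPKM, as did TAP1 and TAP2, at 13.5 to 15.9 and 11.5 to 13.9 RPKM. In Toledo DMSO the order was the same, with no overlap between neighbours. After JQ1 the order changed in SU-DHL-5, where HLA-C passed HLA-B and TAPBP, at 12.4 to 14.1 RPKM, overlapped TAP1, at 12.6 to 12.9 RPKM, and HLA-F lay below NLRC5. In Toledo TAPBP, at 11.3 to 13.1 RPKM, overlapped TAP1, at 12.4 to 12.8.

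Genes that make and trim peptides for class I molecules included several that were lower after JQ1. Of 15 such genes, all of which passed the filter, 4 were called lower in SU-DHL-5, 5 were in Toledo, and 0 were called higher in either line, with median log2 ratios of -0.18 and -0.19. Of all tested genes, 11.9% and 16.1% were called lower and 8.65% and 6.57% higher in SU-DHL-5 and Toledo, with medians of 0.01 and -0.06, and the same background holds for the lists that follow. PSMB8, a catalytic subunit of the immunoproteasome, was at 107 and 113 RPKM in SU-DHL-5 with DMSO and 41.1 and 42.1 with JQ1, and at 31.0 and 30.7 RPKM in Toledo with DMSO and 17.6 and 15.9 with JQ1. PSMB10, another such subunit, stood at log2 ratios of -1.25 (SU-DHL-5) and -0.78 (Toledo), PSME2, a subunit of the proteasome activator PA28, -0.69 and -0.71, and ERAP2, which trims peptides in the endoplasmic reticulum, -1.26 and -0.73. Its relative ERAP1 was at -0.52, short of a call, and -0.75. PSMB9, the third catalytic immunoproteasome subunit, was at -0.18 and -0.17 and was not called.

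Among 10 genes of folding in the endoplasmic reticulum, 0 were called in SU-DHL-5 and 2 were called lower in Toledo, near the 16.1% of all tested genes, with medians of -0.12 and -0.30. TAPBPL, a relative of tapasin that edits peptides away from the pump, was at 4.23 and 4.05 RPKM in SU-DHL-5 with DMSO and 4.05 and 4.17 with JQ1, which overlap, and at 4.32 and 3.89 RPKM in Toledo with DMSO and 1.54 and 1.35 with JQ1. CALR, calreticulin, a chaperone of the loading complex, had log2 ratios of -0.28 and -0.91.

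Regulators of class I transcription were called in both directions. Of 18 in the list, 17 passed the filter, with 3 called higher and 3 lower in SU-DHL-5 and 2 higher and 4 lower in Toledo, and medians of -0.08 and -0.20. Of all tested genes, 8.65% were called higher and 11.9% lower for SU-DHL-5, and 6.57% and 16.1% for Toledo. With 17 genes the counts are too small to set the list apart from those shares. NFYA, the subunit of NFY that reads the ATTGG box printed above, was called higher in both lines, at 6.08 and 6.13 RPKM with DMSO against 11.6 and 11.4 with JQ1 in SU-DHL-5, and at 7.08 and 8.43 RPKM against 16.5 and 15.9 in Toledo. CREB1, which binds the TGACG core, was called higher in SU-DHL-5 at a log2 ratio of 0.65 and was at 0.50 in Toledo. RFX5, the large subunit of the RFX complex, was called lower in both lines at -0.65 and -0.59, the latter just past the threshold. RFXANK, another RFX subunit, and ATF1, a CREB relative, were called lower in Toledo at -0.84 and -0.79 and stood at -0.15 and -0.03 in SU-DHL-5.

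IRF8, an interferon regulatory factor of B cells, was at 47.4 and 45.8 RPKM in SU-DHL-5 with DMSO and 48.8 and 50.5 with JQ1, whereas in Toledo it was at 3.76 and 4.21 RPKM with DMSO and 0.388 and 0.368 with JQ1, a log2 ratio of -3.09. CIITA, the class II relative of NLRC5, was called lower in SU-DHL-5 at -1.18 and was at -0.45 in Toledo. Of the interferon-gamma receptor chains, IFNGR1 was called higher at 0.88 and IFNGR2 lower at -0.71 in SU-DHL-5, with 0.58 and -0.46 in Toledo, short of a call. JAK1, a kinase of interferon receptors, was called higher in Toledo at 0.90 and was at 0.29 in SU-DHL-5. IRF1, which carries interferon signals to class I promoters, was not called in either line, at -0.29 in SU-DHL-5 and -0.04 in Toledo.

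Of 14 class I-like genes, only 4 passed the filter, with 1 called lower in SU-DHL-5 and 3 in Toledo, where 11.9% and 16.1% of all tested genes were. FCGRT, the heavy chain of the neonatal Fc receptor and a partner of B2M, was at 1.88 and 1.74 RPKM in SU-DHL-5 with DMSO and 0.548 and 0.391 with JQ1, and at 4.55 and 3.25 RPKM in Toledo with DMSO and 0.673 and 0.796 with JQ1. MR1, which presents vitamin B metabolites, was at -0.47 and -0.86 on the log2 scale and MICB, a stress ligand of natural killer cells, at -0.42 and -0.62, both called in Toledo. The 15 class I pseudogenes and neighbouring transcripts found in the table were listed at 0 in every library, as were all 21725 genes with no entry in the transcript table, so these zeros carry no information on expression.

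**Figure D5:**
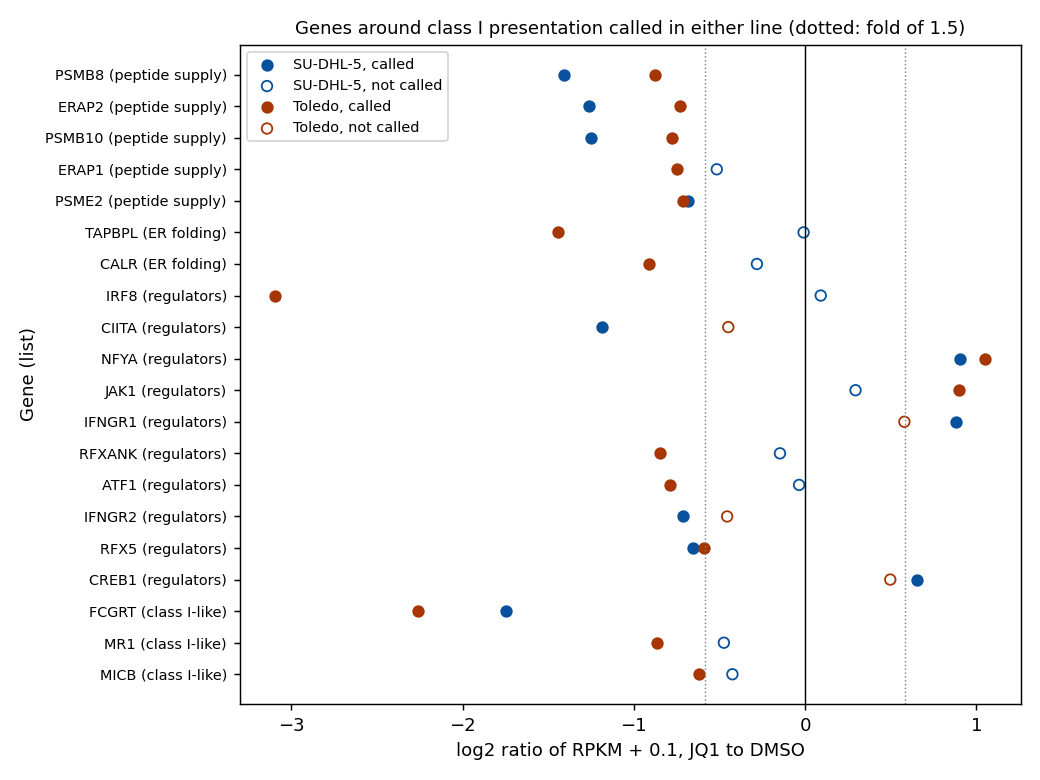
Log2 ratio of RPKM + 0.1, JQ1 to DMSO, of the 20 genes of the surrounding lists called in either line, filled where called and open where not, in SU-DHL-5 (blue) and Toledo (brown), with dotted lines at 1.5-fold. The peptide supply genes drawn lie left of 0 in both lines. Genes of that list that were not called are not drawn, and some of them had log2 ratios above 0. NFYA lies right of 1.5-fold in both lines, and IRF8 and TAPBPL lie far left in Toledo and near 0 in SU-DHL-5.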

How the data were processed

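The deposited tables give RPKM per gene and per transcript, computed by the authors from strand-specific mRNA libraries. The submitters' processing notes name CASAVA 2.0 and the build GRCh38 (hg38), and the aligner and the handling of reads with several matches are not given in the sources used here. The 2 columns of each sample were averaged as 1 replicate (n = 1 per condition). Genes averaging at least 1 RPKM over 8 libraries were compared on log2(RPKM + 0.1), a scale that understates changes of low genes. A call needed a ratio of 1.5 and libraries without overlap. The JQ1 effect over both lines was fitted with limma 3.58.1, with the cell line as a block, since each line gave a DMSO and a JQ1 sample, and a trended prior variance, a fit added after the data were examined. Reads per gene were recovered from the RPKM steps (whole within 0.05) to give exact (Clopper-Pearson) 95% intervals, which cover counting error only. The call rule was tested on simulated data. The members and gene lists were chosen with earlier results of these data known. Named genes are the 9 members, the listed genes called in either line, the genes nearest in profile, and, named after their values were seen, PSMB9 and IRF1. Some genes of the lists are not reported here and were left out of the list counts. Alternatives covered the pseudocount, filter, fold, scaling, gene length, single libraries and summed transcripts. Python 3.11.15, pandas 2.3.3 and scipy 1.17.1 were used.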

Additional observations from a re-analysis of the deposited data

Results flagged for a closer look

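HLA-E moved in opposite directions after JQ1 in the 2 lines, with both libraries lower in SU-DHL-5 and both higher in Toledo, and its log2 ratio in Toledo minus that in SU-DHL-5 was 0.615. The difference was not tested, since each condition had 1 sample.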

How the results depend on the processing

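Within the lines and between the DMSO samples, no member's log2 ratio changed sign under any alternative. For JQ1 in SU-DHL-5, calls lower went from 2 to 1 with a fold of 2, where 5.43% of tested genes were called lower. With a fold below 1.5 they went to 5, where 21.9% were. Calls higher went from 0 to 1 with that smaller fold, against 22.1% of tested genes, or with library 1 alone, against 9.39%. The median log2 ratio went to -0.30 centred on gene length and -0.38 with library 1 alone. For JQ1 in Toledo, calls lower went from 4 to 2 with a pseudocount of 1 RPKM, where 12.2% of tested genes were called lower. With a fold of 2 they went to 1, where 6.94% were, and calls higher from 1 to 0, where 1.6% were. The median went to -0.29 scaled by the median ratio or centred on length and to -0.46 with library 1 alone. Between the DMSO samples, calls went from 2 to 1 in each direction with a fold of 2, against 14.4% of tested genes higher and 13.3% lower. Calls higher went to 1 with library 1 alone, against 23.3%, and there the median was 0.000419. Other folds move such counts by construction, and the cause of the other changes was not tested. Of 300 such values recomputed, 252 moved by less than the spread between libraries, or within 1.5 times for counts, and 0 reversed. Part of this was fixed in advance for the 216 single-member values among them. Dropping the filter cannot change a member's ratio. A ratio from a single library lies within a spread that is itself taken from the 2 libraries. The figure of 252 is therefore not a measure of robustness. In the fit over both lines, added after the data were seen with the cell line as a replicate block, 5 members were called lower. Scaled by the median ratio or centred on length, 3 were, against 14.2% and 16.3% of genes. Without a trend in the prior variance 2 were, against 7.9%. Without the filter or without the block 0 were, against 0.221% and 0%. Calls higher went from 1 to 0 without the trend, the filter or the block, against 3.55%, 0.141% and 0%. At an unadjusted limma p below 0.05 were 5 members without the trend, 6 without the filter and 1 without the block. Shares of all genes at that threshold were not computed for these fits. In the main fit 6 members and 3713 of 9521 genes passed it. HLA-B and HLA-C were lost scaled by the median ratio, centred on length, and without the trend, the filter or the block. HLA-C was also lost with either other pseudocount, library 2 alone or summed transcripts (adjusted limma p of 0.0517 to 0.285). HLA-E turned from -0.03 to 0.10 centred on length, not past the threshold either way. RPKM is relative to all mapped reads, so a change in total RNA per cell could not be seen, and depth limits HLA-F and NLRC5 most.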
